A study of Mus musculus with 6 samples.

Results

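The genes described here encode effectors of cellular killing: granzymes A, B and K (Gzma, Gzmb, Gzmk), perforin (Prf1), the granule proteins Nkg7, Cst7 and Ctsw, the activating receptor Klrk1, Fas ligand (Fasl) and interferon gamma (Ifng). They are a fixed list of gene symbols, chosen with earlier results of these data known. The shares over all genes given below are therefore a description and no test. All 10 were found among the 22063 genes of the expression table. RNA was measured in 6 mouse bladder tumours, 3 labelled non-responsive and 3 labelled responsive. All were from female animals with spontaneously arising bladder cancer and an intact immune system, and all had received an anti-PD-1 antibody once tumours had formed, so no untreated tumour was compared. The labels state no strain, genotype, age, antibody dose or criterion of response. PD-1 is an inhibitory receptor that restrains T cells, and the study asked how tumours that resist its blockade differ from those that respond.

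Cytotoxic T cells and natural killer (NK) cells store perforin and granzymes in secretory granules. On contact with a target, perforin forms pores in its membrane and granzymes enter and cleave proteins inside it. Fas ligand and interferon gamma act outside the granule, the first by triggering a death receptor on the target and the second as a secreted cytokine that raises antigen presentation. These proteins are used as markers of effector activity in tumours, where they are made by a minority of the cells.

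Total counts were between 15046180 and 23917398 per tumour, and levels are given as CPM, counts scaled to the library size and normalised by TMM. A gene with a count of 0 may still have been present at up to 3 counts, which is 0.124 to 0.199 CPM here and covers counting error only. The bladder label was checked on urothelial genes: the basal keratin Krt5 was at 1090 to 8260 CPM and the uroplakin Upk2 at 7.87 to 199 CPM, so both were detected in every tumour. Non-responsive replicate 2 stood apart in leukocyte content. The pan-leukocyte gene Ptprc was at 263 CPM there, next to 80.7 CPM in replicate 1 and 102 CPM in replicate 3 of that group, and 58.2, 80.2 and 30.6 CPM in responsive replicates 1, 2 and 3. The 10 T cell markers examined summed to 170 CPM in that tumour. Their sum was 38.8 CPM in replicate 1 and 36.0 CPM in replicate 3 of the same group, and 24.2, 37.2 and 30.0 CPM in the responsive tumours. Nothing in the labels ties a tumour to an animal, so a p-value here reflects only how far these samples spread, and part of that may be technical.

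All 10 genes had higher mean levels in non-responsive tumours, but none passed the edgeR quasi-likelihood test at an adjusted p under 0.05. In a fit of all genes with a count the median difference of the 10 was 1.79 on the log2 scale, 3.47-fold, with a range of 1.11 to 2.90, beside a median of -0.001 over all genes. For 7 of the 10, Gzmb, Gzmk, Prf1, Nkg7, Ifng, Cst7 and Klrk1, every non-responsive CPM value lay above every responsive one, which held for 8.24% of all genes with a count. The other 3, Gzma, Fasl and Ctsw, overlapped between the groups. Non-responsive replicate 2 had the highest level of all 10 genes. Without it the median was 1.06, 2.09-fold, with a range of 0.36 to 2.02, and the same 7 genes did not overlap, beside 12.5% of all genes with a count in those 5 tumours. The rise was not particular to the effector genes. In the filtered fit of all tumours their median was 1.72, that of the T cell markers 1.53, and Ptprc differed by 1.40.

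Of the 10 genes, 7 passed the expression filter (10 counts or the equivalent CPM in 3 tumours) and entered the main test, while Gzmk, Fasl and Ifng were too low. A gene near that limit can pass through the group where it is high, as Prf1 did. The count of those that passed is therefore no support, and nor is the place of Prf1 among them. edgeR called 0 of the 7, against 0% of all 14505 genes. At an unadjusted p under 0.05 were 5, namely Gzmb, Prf1, Nkg7, Klrk1 and Cst7, beside 6.79% of all genes tested that were higher in non-responsive tumours at that level. In the fit without a filter the same 5 of all 10 were at an unadjusted p under 0.05, beside 5.84% of genes. Without non-responsive replicate 2 that number was 3 in the filtered fit, beside 4.88% of genes, and 1 of 10 in the fit without a filter, beside 4.26%. DESeq2 called 1 of the 10, Gzmb, beside 1.45% of genes called higher.

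**Figure D1:**
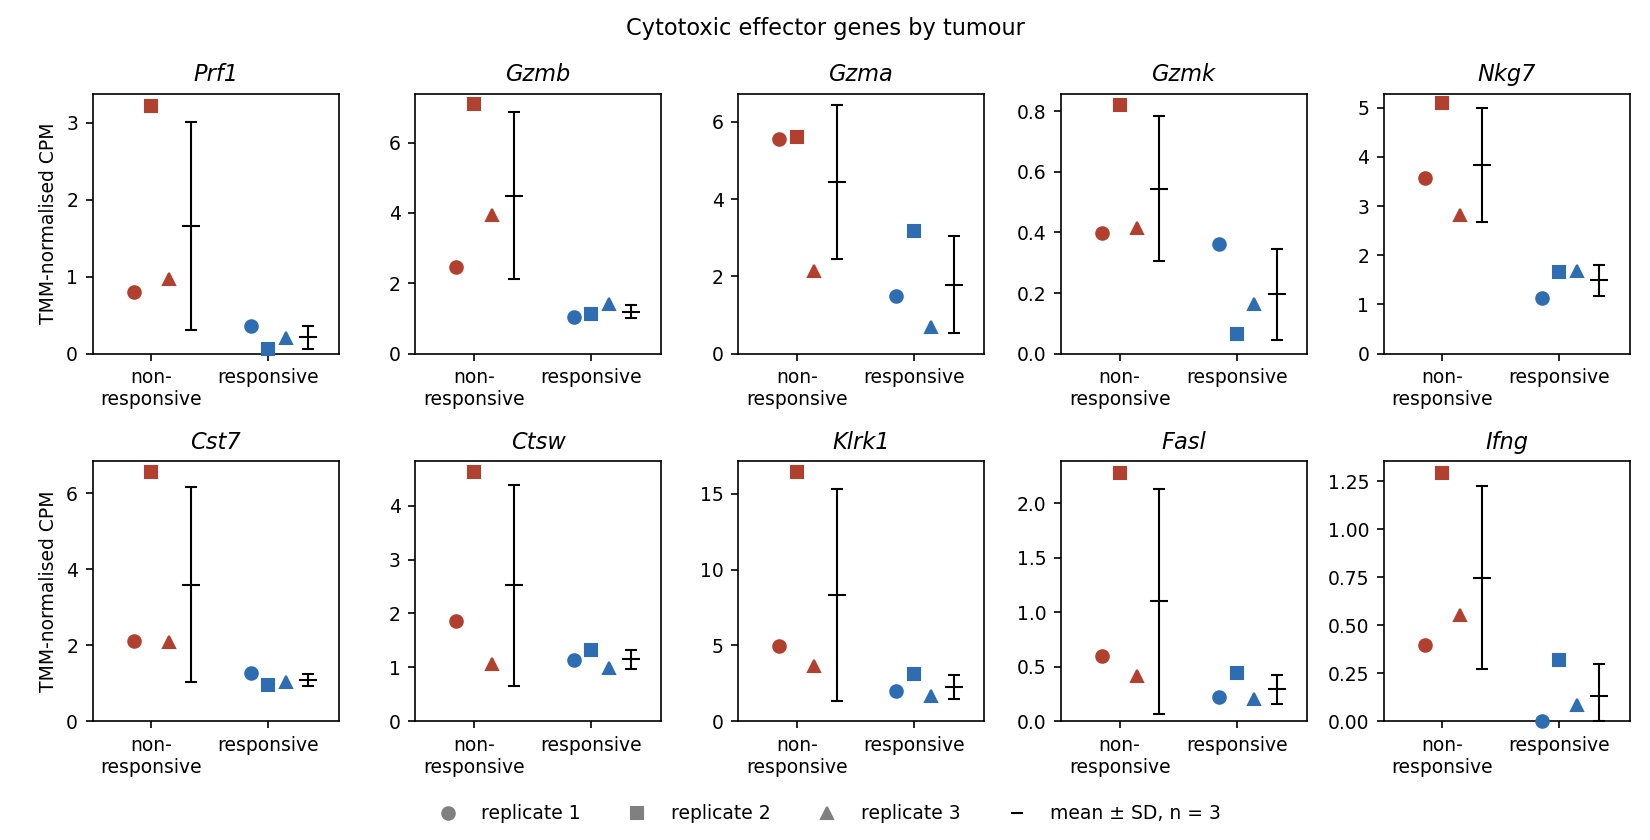
TMM-normalised CPM of each of the 10 genes (vertical axes, each starting at 0) in the 3 non-responsive and 3 responsive tumours; each symbol is a tumour and the black bar is the mean with its SD, which is drawn only down to 0. The square of non-responsive replicate 2 is the highest point of every panel, at 16.4 CPM for Klrk1 and 7.09 CPM for Gzmb, and the groups overlap for Gzma, Ctsw and Fasl.

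The promoters of the 5 genes with an unadjusted p under 0.05 are shown because these genes were higher in the same tumours. Each window runs from 250 bases before the RefSeq transcription start to the first 50 transcribed bases, 5′ to 3′ on the gene's strand, from RefSeq on GRCm38.p6, with matches to the motifs below in capitals. Of the 10 genes, 9 had a window. RefSeq starts can differ from the gene positions given below, which are from GENCODE. The Gzmb window lies wholly before the GENCODE start of that gene, and the RefSeq start of Nkg7 lies inside its GENCODE gene.
Gzmb, minus strand, chr14:56262285-56262584.
Gzmb: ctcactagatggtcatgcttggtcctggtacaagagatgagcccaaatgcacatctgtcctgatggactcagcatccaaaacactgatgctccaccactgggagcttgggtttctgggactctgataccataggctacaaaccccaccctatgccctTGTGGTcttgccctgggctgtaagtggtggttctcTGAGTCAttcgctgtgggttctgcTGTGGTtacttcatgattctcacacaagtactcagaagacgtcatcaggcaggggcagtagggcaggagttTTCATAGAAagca
Prf1, plus strand, chr10:61297586-61297885.
Prf1: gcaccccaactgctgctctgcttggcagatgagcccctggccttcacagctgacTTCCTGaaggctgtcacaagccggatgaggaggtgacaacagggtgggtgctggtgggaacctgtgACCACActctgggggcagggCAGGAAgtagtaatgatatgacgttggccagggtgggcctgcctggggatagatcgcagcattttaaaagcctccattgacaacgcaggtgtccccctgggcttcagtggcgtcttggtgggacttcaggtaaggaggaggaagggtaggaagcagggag
Nkg7, plus strand, chr7:43436888-43437187.
Nkg7: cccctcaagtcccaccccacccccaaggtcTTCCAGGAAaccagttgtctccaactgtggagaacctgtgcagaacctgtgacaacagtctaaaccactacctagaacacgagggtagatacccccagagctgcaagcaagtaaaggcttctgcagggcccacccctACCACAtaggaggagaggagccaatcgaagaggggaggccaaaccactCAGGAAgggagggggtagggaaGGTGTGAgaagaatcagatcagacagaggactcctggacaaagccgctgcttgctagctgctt
Klrk1, minus strand, chr6:129623815-129624114.
Klrk1: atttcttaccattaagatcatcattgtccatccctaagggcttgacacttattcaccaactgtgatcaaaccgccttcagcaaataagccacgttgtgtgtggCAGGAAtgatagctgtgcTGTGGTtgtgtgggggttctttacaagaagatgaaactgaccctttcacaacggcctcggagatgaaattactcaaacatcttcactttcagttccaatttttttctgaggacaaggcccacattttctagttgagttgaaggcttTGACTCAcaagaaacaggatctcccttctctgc
Cst7, plus strand, chr2:150570165-150570464.
Cst7: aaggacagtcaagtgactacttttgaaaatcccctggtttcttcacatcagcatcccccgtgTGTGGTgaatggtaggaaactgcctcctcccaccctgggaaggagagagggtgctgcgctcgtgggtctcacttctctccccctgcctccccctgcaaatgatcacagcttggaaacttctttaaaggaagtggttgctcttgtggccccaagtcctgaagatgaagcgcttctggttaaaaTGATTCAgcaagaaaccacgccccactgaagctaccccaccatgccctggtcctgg

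Both strands were searched for 6 short motifs, the general TATA box of promoters and others known from lymphocyte gene control. The RUNX core TGTGGT was found in 6 of the 9 windows (Gzmb, Prf1, Nkg7, Klrk1, Cst7 and Gzma), and in 16.8% of the 32851 RefSeq windows of the same length. In the Gzmb window it occurs at 93 and again at 34 bases before the start, in Klrk1 at 129, in Cst7 at 188, and on the other strand in Prf1 at 130 and in Nkg7 at 83. The T-box core TCACACC, the type of sequence bound by T-bet and Eomes, was in 2 of 9 (Nkg7 at 13 bases before the start, on the other strand, and Gzmk), beside 3.98% of all windows. The AP-1 site TGANTCA was in 3 (Gzmb, Klrk1 and Cst7; 7.81% of all windows), the STAT site TTCNNNGAA in 3 (Gzmb, Nkg7 and Ifng; 8.3%), the ETS core CAGGAA in 4 (Prf1, Nkg7, Klrk1 and Fasl; 30.6%) and the TATA box TATAAA in Ifng alone (13.6%). In Nkg7 an ETS core lies inside the STAT match. A match is a run of letters and not a measured binding site.

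Prf1 (chromosome 10, 61297833 to 61304680, plus strand, mm10), the pore-forming protein, was counted 12, 55 and 21 times in the non-responsive replicates 1 to 3. The responsive replicates had 8, 1 and 5 counts. In CPM these were 0.795, 3.22 and 0.972 against 0.361, 0.0634 and 0.206. All 3 non-responsive values lay above the responsive ones, and the responsive tumours were so low that a single count stood for the gene in replicate 2. The log2 difference was 2.90 ± 0.86 (SE), 7.49-fold (edgeR adjusted p = 0.35). Without non-responsive replicate 2 it was 2.02, and without responsive replicate 1 it was 3.49.

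Gzmb (chromosome 14, 56258838 to 56262260, minus strand), the granzyme that cleaves caspases after aspartate, was counted 37, 121 and 85 times in non-responsive tumours (in replicate order, here and below) and 23, 18 and 34 times in responsive ones. This was 2.45, 7.09 and 3.93 CPM against 1.04, 1.14 and 1.40 CPM. The responsive values were close together (1.19 ± 0.186 CPM, SD, n = 3), and the lowest non-responsive value was above all of them. The log2 difference was 1.91 ± 0.53 (edgeR adjusted p = 0.35) and DESeq2 gave an adjusted p of 0.0265. That call held without non-responsive replicate 1 (DESeq2 adjusted p = 0.00123) and was lost when any other tumour was left out. DESeq2 then gave adjusted p = 0.19 and 0.121 without non-responsive replicates 2 and 3, and 0.101, 0.138 and 0.102 without responsive replicates 1, 2 and 3, with log2 differences between 1.43 and 2.02.

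Gzma (chromosome 13, 113093825 to 113100981, minus strand), a tryptase-like granzyme, followed another order. Non-responsive tumours had 84, 96 and 46 counts and responsive tumours 33, 50 and 17, which is 5.56, 5.62 and 2.13 CPM against 1.49, 3.17 and 0.700 CPM. Responsive replicate 2 lay above non-responsive replicate 3, so the groups overlapped. Non-responsive replicates 1 and 2 had nearly the same Gzma level, whereas Gzmb was 2.45 and 7.09 CPM in them. The Gzma difference was 1.32 ± 0.68 on the log2 scale (edgeR adjusted p = 0.438), with 0.93 without responsive replicate 3 and 2.01 without responsive replicate 2.

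Gzmk (chromosome 13, 113171608 to 113225908, minus strand), a granzyme typical of memory-type CD8 T cells, was near the detection limit. It had 6, 14 and 9 counts in non-responsive and 8, 1 and 4 in responsive tumours. In CPM the groups did not overlap (0.397, 0.820 and 0.416 against 0.361, 0.0634 and 0.165). However, non-responsive replicate 1 and responsive replicate 1 differed by less than the 3 counts that a count of 0 allows. In deposited FPKM, which is scaled for gene length and has its own scaling for depth, those tumours were in the other order at 0.340 and 0.388. In the fit without a filter the log2 difference was 1.40 ± 0.87 (edgeR adjusted p = 0.526), with 2.13 when responsive replicate 1 was left out and 1.01 without non-responsive replicate 2. The annotated span of Gzmk contains Esm1 on the opposite strand, with no shared exonic base.

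Granzyme composition varied between tumours of the same group. Of the summed FPKM of the 3 granzymes, Gzma made up 75.1, 52.8 and 43.5% in non-responsive tumours. In responsive tumours its share was 59.8, 80.6 and 40.7%. Gzmb made up 20.3, 40.7 and 49.2% and 25.7, 17.8 and 49.8%. Gzmk was the smallest part, with 1.59 to 14.5%. Gzmb was ahead of Gzma in replicate 3 of each group and behind it in the other tumours, so the balance of the granzymes did not separate the groups.

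Of the other granule proteins, Nkg7 (chromosome 7, 43437073 to 43438249, plus strand), a granule membrane protein needed for degranulation, had 54, 87 and 61 counts in non-responsive tumours, and 25, 26 and 41 in responsive ones. These correspond to 3.58, 5.09 and 2.82 CPM against 1.13, 1.65 and 1.69 CPM, without overlap. Its log2 difference of 1.36 ± 0.45 (edgeR adjusted p = 0.364) had the narrowest range of the 7 tested genes when each tumour was left out in turn, 1.12 to 1.54.

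Cst7 (chromosome 2, 150570415 to 150578944, plus strand) encodes cystatin F, an inhibitor of the proteases that activate granzymes. It was at 2.12, 6.56 and 2.08 CPM (32, 112 and 45 counts) in the non-responsive and at 1.26, 0.952 and 1.03 CPM (28, 15 and 25 counts) in the responsive tumours. Non-responsive replicate 2 was far above the other non-responsive tumours, which still lay above the responsive ones. The log2 difference of 1.72 ± 0.60 (edgeR adjusted p = 0.364) was 0.97 without that tumour.

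Ctsw (chromosome 19, 5465043 to 5468507, minus strand), a cathepsin found in cytotoxic lymphocytes, was high in non-responsive replicate 2 only. It was at 1.85, 4.63 and 1.06 CPM (28, 79 and 23 counts) against 1.13, 1.33 and 0.988 CPM (25, 21 and 24 counts), and non-responsive replicate 3 lay within the responsive range. The log2 difference was 1.13 ± 0.63 (edgeR adjusted p = 0.464) with all tumours and 0.36 without non-responsive replicate 2. Its gene overlaps Fibp on the opposite strand by 9 exonic bases, and Fibp was at 18.3 to 29.8 CPM. No source used here states whether counting used the strand, so reads of the shared bases cannot be told apart.

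Klrk1 (chromosome 6, 129610323 to 129623864, minus strand) encodes NKG2D, a receptor of NK cells and activated CD8 T cells that recognises stress ligands. Its values were 4.97, 16.4 and 3.61 CPM (75, 280 and 78 counts) in non-responsive tumours, and 1.99, 3.11 and 1.65 CPM (44, 49 and 40 counts) in responsive ones. The lowest non-responsive value was close to the highest responsive one, without overlap. The log2 difference of 1.89 ± 0.65 (edgeR adjusted p = 0.364) was 0.95 without non-responsive replicate 2.

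Among the effectors that act outside the granule, Fasl (chromosome 1, 161780689 to 161788495, minus strand), the death ligand, had 9, 39 and 9 counts in non-responsive tumours. It had 5, 7 and 5 counts in responsive ones. In CPM this was 0.596, 2.28 and 0.416 against 0.226, 0.444 and 0.206, with responsive replicate 2 above non-responsive replicate 3. In FPKM responsive replicate 2 was at 0.218 and non-responsive replicate 3 at 0.353, the other order, so the overlap of Fasl depended on the unit. The log2 difference without a filter was 1.90 ± 0.88 (edgeR adjusted p = 0.455), and 0.82 without non-responsive replicate 2.

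Ifng (chromosome 10, 118441046 to 118445892, plus strand), the secreted cytokine, had 6, 22 and 12 counts against 0, 5 and 2. The count of 0 in responsive replicate 1 allows up to 0.135 CPM, and the other responsive values were 0.317 and 0.0824 CPM, against 0.397, 1.29 and 0.555 CPM in the non-responsive tumours. Non-responsive replicate 1 and responsive replicate 2 were 1 count apart, a gap that this depth cannot resolve. The log2 difference without a filter was 2.51 ± 1.17 (edgeR adjusted p = 0.454). Single tumours moved it: it was 3.95 when responsive replicate 2 was left out, 1.91 without responsive replicate 1 and 1.93 without non-responsive replicate 2. An unclassified transcript model, Gm49751, shares 336 exonic bases with Ifng on the same strand.

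**Figure D2:**
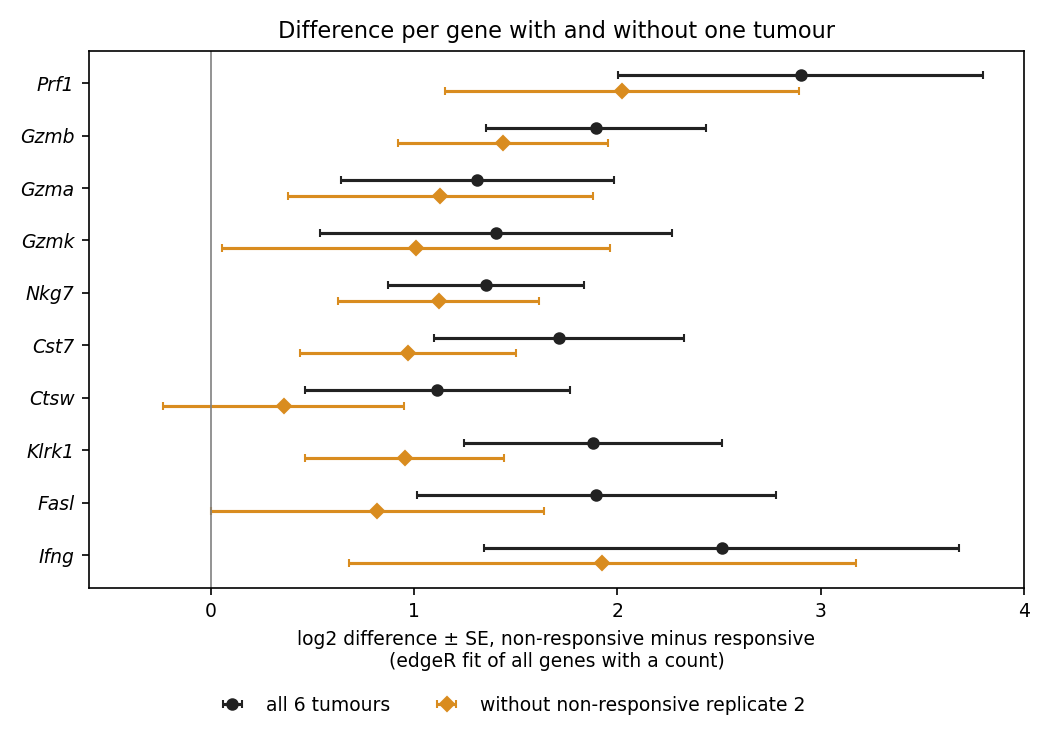
Log2 difference of each gene, non-responsive minus responsive, with its SE (horizontal axis), from the edgeR fit of all genes with a count, for all 6 tumours (circles) and without non-responsive replicate 2 (diamonds). Every point lies above 0, and every diamond is left of its circle, from 2.90 to 2.02 for Prf1 and from 1.11 to 0.36 for Ctsw.

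Levels of different genes were compared in FPKM. In the non-responsive tumours the order by mean was Klrk1 (5.85 ± 5.48 FPKM, SD, n = 3), Gzma (5.15 ± 2.35), Nkg7 (4.69 ± 1.93), Cst7 (3.91 ± 3.16), Gzmb (3.36 ± 2.08), Ctsw (2.16 ± 1.81), Fasl (0.922 ± 0.983), Prf1 (0.729 ± 0.653), Ifng (0.666 ± 0.482) and Gzmk (0.561 ± 0.302). Neighbours in that order lay within their spread of each other, and only the steps from Gzmb to Ctsw and from Ctsw to Fasl kept their direction in each of the 3 tumours. In the responsive tumours Gzma (1.95 ± 1.35), Nkg7 (1.65 ± 0.379) and Klrk1 (1.50 ± 0.63) led, and Ifng (0.106 ± 0.129) and Prf1 (0.0823 ± 0.0575) were lowest. The same 4 genes, Gzmk, Fasl, Prf1 and Ifng, were below the other 6 in every one of the 6 tumours.

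**Figure D3:**
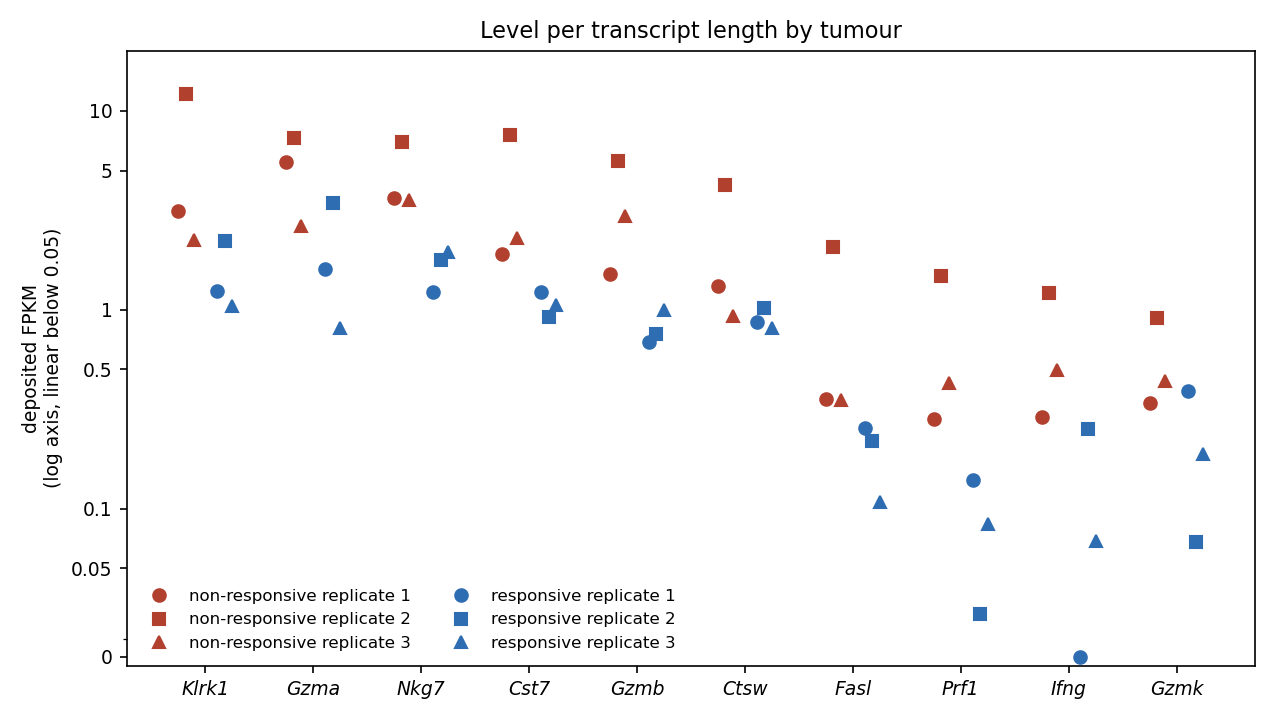
Deposited FPKM of the 10 genes in each tumour, on a log axis that is linear below 0.05, ordered by the mean of the non-responsive tumours. Klrk1 reaches 12.155 FPKM in non-responsive replicate 2, and Prf1, Ifng, Fasl and Gzmk form a lower group in all 6 tumours.

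Whether the effector genes differed beyond the number of T cells was described by their counts per 100 counts of the CD3 complex genes Cd3d, Cd3e and Cd3g, after adding 0.5 to both. CD3 is the signalling part of the T cell receptor and is carried by all T cells, while NK cells lack surface CD3. In a bulk sample fewer cells of a type and less RNA per cell cannot be told apart, and the ratio shows only that genes were unequal within a tumour. The summed CD3 counts were 185, 737 and 163 in non-responsive tumours, and 150, 157 and 204 in responsive ones. Prf1 was at 6.74, 7.53 and 13.1 per 100 against 5.65, 0.952 and 2.69. Klrk1 was at 40.7, 38.0 and 48.0 per 100 against 29.6, 31.4 and 19.8. Fasl was at 5.12, 5.36 and 5.81 per 100 against 3.65, 4.76 and 2.69. For these 3 of 10 genes every non-responsive ratio lay above every responsive one, beside 0.296% of all genes with a count on the same scale. The 737 CD3 counts of non-responsive replicate 2 lower the ratio there of any gene that did not rise with CD3. That share is therefore small by construction, was 2.79% without that tumour, and is no measure of enrichment. For Fasl the 3 non-responsive tumours were nearly equal although their CPM ranged from 0.416 to 2.28. The closest Fasl ratios rested on 9 counts in non-responsive replicate 1 and 7 in responsive replicate 2, a gap that this depth cannot resolve. Those of Prf1 rested on 12 counts in non-responsive replicate 1 and 8 in responsive replicate 1.

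The other 7 genes overlapped on this scale. Gzmb was at 20.2, 16.5 and 52.3 per 100 against 15.6, 11.7 and 16.9, so that non-responsive replicate 3 stood out and not replicate 2. Nkg7 was at 29.4, 11.9 and 37.6 against 16.9, 16.8 and 20.3, and non-responsive replicate 2, the tumour with the most CD3, had the lowest value of all 6. Gzma was at 45.6, 13.1 and 28.4 per 100 against 22.3, 32.1 and 8.56. Ctsw was at 15.4, 10.8 and 14.4 against 16.9, 13.7 and 12.0, the smallest difference of the 10. Gzmk, Ifng and Cst7 also overlapped. Without non-responsive replicate 2 the ratios of 6 genes did not overlap, Gzmb, Nkg7 and Ifng joining Prf1, Fasl and Klrk1, beside 2.79% of all genes.

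The choice of reference mattered. Per count of Ptprc, 2 of 10 genes did not overlap, beside 0.224% of all genes: Prf1 (1.03, 1.24 and 0.977 per 100 against 0.659, 0.119 and 0.739) and Ifng (0.533, 0.501 and 0.568 against 0.0388, 0.435 and 0.336). Per summed count of Cd8a and Cd8b1, the chains of the CD8 co-receptor, 0 of 10 were free of overlap, beside 0.0876% of all genes. Cst7 was then at 39.4, 36.1 and 36.3 per 100 against 90.5, 24.0 and 34.2. CD8 chain counts were 82, 311 and 125 against 31, 64 and 74, so the ratio in responsive replicate 1 rested on 31 counts. Non-responsive replicate 2 also had the highest Ptprc count, 4487, and the highest CD8 count, so both shares are lowered in the same way.

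**Figure D4:**
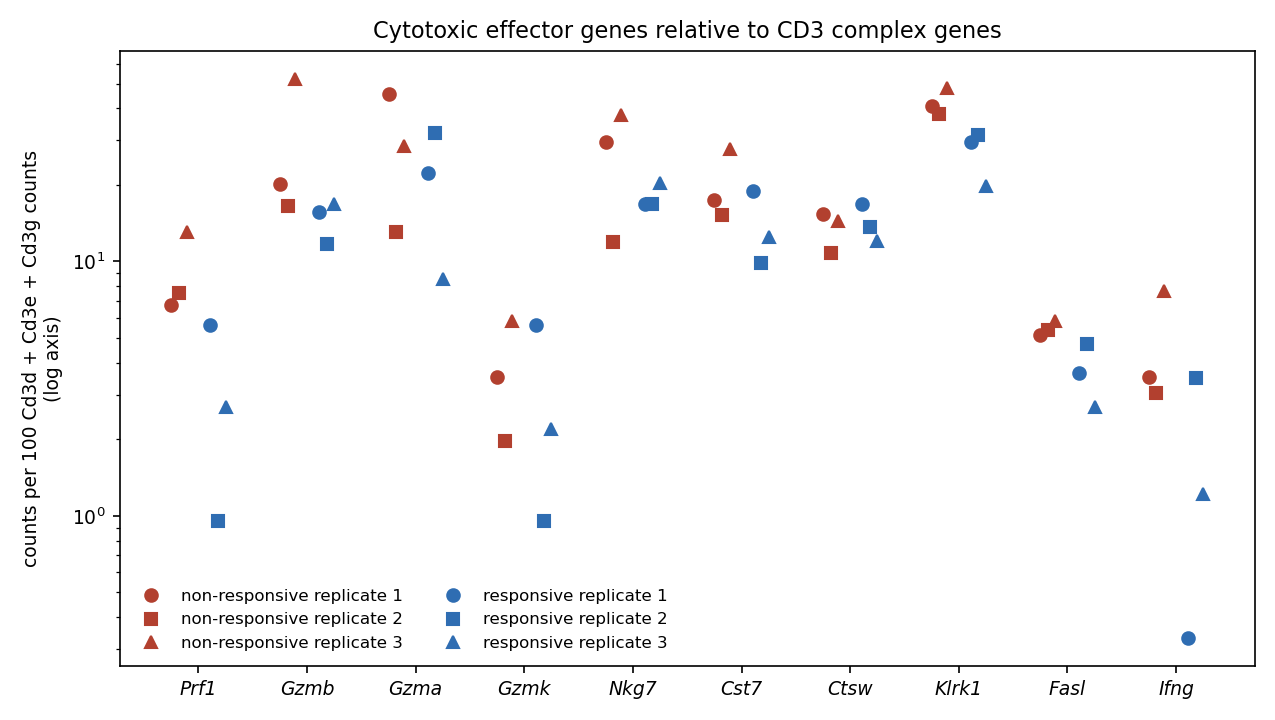
Counts of each gene per 100 summed Cd3d, Cd3e and Cd3g counts (log axis), with 0.5 added to both counts, in each tumour. Prf1, Klrk1 and Fasl are higher in all 3 non-responsive tumours, and the square of non-responsive replicate 2 is the lowest point for Nkg7, at 11.9. The closest points of Fasl and Prf1 rest on few counts.

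Markers of the cells that could carry these genes were examined next, and edgeR and DESeq2 called none of the T cell, NK cell and gamma delta T cell markers. Of these, 10, 3 and 2 passed the filter, and 3, 0 and 0 had an unadjusted edgeR p under 0.05. Those 3 were Cd5, Cd8a and Cd8b1, beside 6.79% of all genes tested that were higher at that level. All 10 T cell markers had a difference above 0, and none was at a count of 0 in any tumour. Of the 10, 3 (Cd8a, Cd8b1 and Cd247) did not overlap, beside 8.24% of all genes with a count. The 8 NK cell markers summed to 9.74, 20.9 and 3.79 CPM in non-responsive tumours, and to 14.9, 4.76 and 3.38 CPM in responsive ones, where the sum in responsive replicate 1 was mostly Klra4 at 10.5 CPM. The NK receptor Ncr1 was at 0.265, 1.29 and 0.185 CPM against 0.135, 0.317 and 0.124 CPM, Klrb1c was at 0.596, 2.99 and 0.555 CPM against 0.497, 0.508 and 0.288 CPM, and Klre1 and Klra8 were at a count of 0 in non-responsive replicate 3. The gamma delta T cell gene Trdc was at 1.72, 3.92 and 0.555 CPM against 1.53, 1.33 and 1.44 CPM. Of 5 gamma delta markers 2 were in the table, and the second, Sox13, was at 13.4, 16.2 and 6.52 CPM against 7.58, 23.2 and 25.2 CPM, the other direction.

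Markers of other cells were compared as well. The 4 myeloid markers summed to 405, 562 and 397 CPM against 300, 340 and 157 CPM. DESeq2 called 1 of them, Fcgr1, higher (DESeq2 adjusted p = 0.0489), beside 1.45% of genes called higher. The 5 mast cell markers summed to 21.1, 65.8 and 31.6 CPM against 134, 70.0 and 34.4 CPM. Of these DESeq2 called 3 (Mcpt4, Tpsb2 and Cma1) lower, beside 230 of the 14998 genes to which it gave an adjusted p. Kit, the receptor counted among these markers, went the other way with 6.09, 36.0 and 20.3 CPM against 8.98, 7.04 and 4.61 CPM, and made up most of their sum in non-responsive replicate 2. All 5 neutrophil markers had a difference above 0 with a median of 1.52 on the log2 scale, and 1 had an unadjusted edgeR p under 0.05. edgeR called 0. DESeq2 gave no p for Camp and Ngp and called none of the others. The summed CPM of these markers overlapped, with 399 in responsive replicate 2 above 309 and 246 in non-responsive replicates 2 and 3. Camp and Ngp were at 26.6 and 34.5 CPM in non-responsive replicate 1, and at most 0.865 and 4.57 CPM in the other tumours. The neutrophil gene Retnlg was at 21.9, 66.6 and 21.5 CPM against 6.77, 24.7 and 7.04 CPM. Of the 5 urothelial markers 4 were below 0 and 1 above, and DESeq2 called 3 (Upk1a, Upk2 and Upk3a) lower. The uroplakin Upk3a was at 3.38, 16.6 and 2.92 CPM against 34.5, 53.1 and 158 CPM. The groups overlapped for Upk1a, Upk1b and Upk2. Krt5 went the other way with overlap, at 8260, 1090 and 1920 CPM against 3030, 2430 and 1650 CPM. A list of 12 B cell and lymph node genes was added after seeing the data, because non-responsive replicate 2 was rich in leukocyte RNA, and 8 of the 12 were highest in that tumour. The B cell genes Ms4a1 and Cd79a were at 15.9 and 17.4 CPM there, with 1.52 to 4.11 CPM and 2.32 to 5.19 CPM in the other tumours, and Glycam1, a gene of lymph node vessels, was at 12.6 CPM, with 0.464 to 1.94 CPM elsewhere. The lymphoid chemokine Ccl21a was at 140 CPM in it, below the 205, 157 and 304 CPM of the responsive tumours. Ccl19, Cxcl13 and Madcam1 were not highest in it either, at 4.57, 13.0 and 0.351 CPM. Their highest values were 8.76 and 25.0 CPM in responsive replicate 1 and 0.416 CPM in non-responsive replicate 3. Whether the sample of non-responsive replicate 2 held lymphoid tissue was not tested. The part of cell composition in the differences of the effector genes was not tested either.

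The genes around these effectors were taken from lists by role, 62 genes of which 58 were in the table and 45 passed the filter. Both edgeR and DESeq2 called 0 of them. At an unadjusted edgeR p under 0.05, 8 of the 45 were higher and 3 lower in non-responsive tumours, beside 6.79% and 5.79% of all genes tested. That count of 11 was between 2 and 12 when each tumour was left out, with 2 without responsive replicate 3 and 5 without non-responsive replicate 2.

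The other granzymes were hardly detected. Gzmc had 2, 46 and 19 counts in non-responsive tumours against 10, 7 and 0, and was again highest in non-responsive replicate 2. Gzmf had 2 counts in each non-responsive tumour and 0 in each responsive one. Gzmd and Gzme had at most 9 and 6 counts, Gzmm at most 12, and Gzmg and Gzmn were at 0 in all 6. None of the 7 passed the filter. All of these except Gzmm lie beside Gzmb on chromosome 14 and resemble each other, and no source used here says how reads shared between them were assigned.

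Genes of granule maturation and release showed no common direction, with 5 of 14 above 0 and a median log2 difference of -0.08, beside 0.01 over all genes tested. Ctsc, the peptidase that activates granzymes, was at 315, 422 and 367 CPM against 279, 257 and 173 CPM (0.64 ± 0.26, edgeR adjusted p = 0.389), without overlap. Ctsh, a related peptidase, differed by -0.97 ± 0.35 (edgeR adjusted p = 0.364). Sytl2, a tether of secretory granules, differed by -2.42 ± 1.01 (edgeR adjusted p = 0.392), with 163 and 228 CPM in responsive replicates 2 and 3 against 16.5 CPM in responsive replicate 1. The exocytosis genes Unc13d and Stx11 differed by -0.04 ± 0.42 and -0.19 ± 0.37. These genes act in many cell types.

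Of the granzyme inhibitors, 5 of 8 passed the filter, with a median of 0.05. Serpinb6a, a protease inhibitor of many tissues, was at 271, 221 and 184 CPM against 454, 372 and 313 CPM, lower without overlap (-0.75 ± 0.25, edgeR adjusted p = 0.364). Serpina3g was at 22.3, 104 and 57.7 CPM against 19.0, 26.6 and 25.8 CPM (1.37 ± 0.51, edgeR adjusted p = 0.372), with non-responsive replicate 1 inside the responsive range. Serpinb9, the inhibitor of granzyme B, differed by 0.44 ± 0.35 (edgeR adjusted p = 0.579).

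Among the partners of Klrk1, 6 passed the filter and 4 of them were above 0, with a median of 0.63. The ligand gene Raet1d was at 5.17, 2.69 and 1.76 CPM against 1.31, 1.14 and 0.494 CPM (1.70 ± 0.62, edgeR adjusted p = 0.371), and Raet1e at 4.50, 7.96 and 9.86 CPM against 2.75, 3.43 and 3.79 CPM (1.16 ± 0.40, edgeR adjusted p = 0.364). Both were free of overlap, and neither was highest in non-responsive replicate 2, unlike the 10 effector genes. Raet1d and Raet1e are close relatives, and reads may be split between them. Ulbp1 differed by 0.86 ± 0.35 (edgeR adjusted p = 0.389). The ligand gene H60c was at 191, 97.2 and 68.9 CPM against 131, 198 and 117 CPM. The adaptor Hcst, which couples NKG2D to signalling, differed by -0.13 ± 0.73.

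In the death receptor list 4 of 8 genes were above 0, with a median of 0.04. Tnfsf10, encoding the death ligand TRAIL, was at 8.74, 63.6 and 31.3 CPM against 10.7, 14.4 and 7.74 CPM (1.66 ± 0.65, edgeR adjusted p = 0.379), with non-responsive replicate 1 inside the responsive range. Fas, the receptor of Fas ligand, differed by 0.12 ± 0.37. Of the 8, 2 were higher without overlap, beside 8.24% of all genes with a count. Cflar was at 98.2, 136 and 96.2 CPM against 78.1, 84.1 and 75.7 CPM (edgeR adjusted p = 0.397). Tnfrsf10b was at 12.8, 11.7 and 11.8 CPM against 9.12, 6.09 and 9.72 CPM (edgeR adjusted p = 0.435). For interferon gamma signalling all 6 genes were above 0 with a median of 0.28. Jak2, the kinase of the interferon gamma receptor, was at 97.4, 155 and 94.1 CPM against 44.2, 82.3 and 69.2 CPM (0.83 ± 0.31, edgeR adjusted p = 0.372).

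Of 8 effector transcription factors 6 passed the filter, 5 of them above 0, with a median of 0.65. Runx3, which drives the CD8 effector program, was at 7.42, 17.5 and 10.7 CPM against 5.64, 7.04 and 5.19 CPM, higher without overlap (1.00 ± 0.38, edgeR adjusted p = 0.372). The T-box factors Tbx21 (T-bet) and Eomes were below the filter, with 6, 45 and 8 counts against 10, 4 and 5 for Tbx21 and 6, 36 and 12 against 10, 6 and 7 for Eomes. Both were highest in non-responsive replicate 2, and the groups overlapped.

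**Figure D5:**
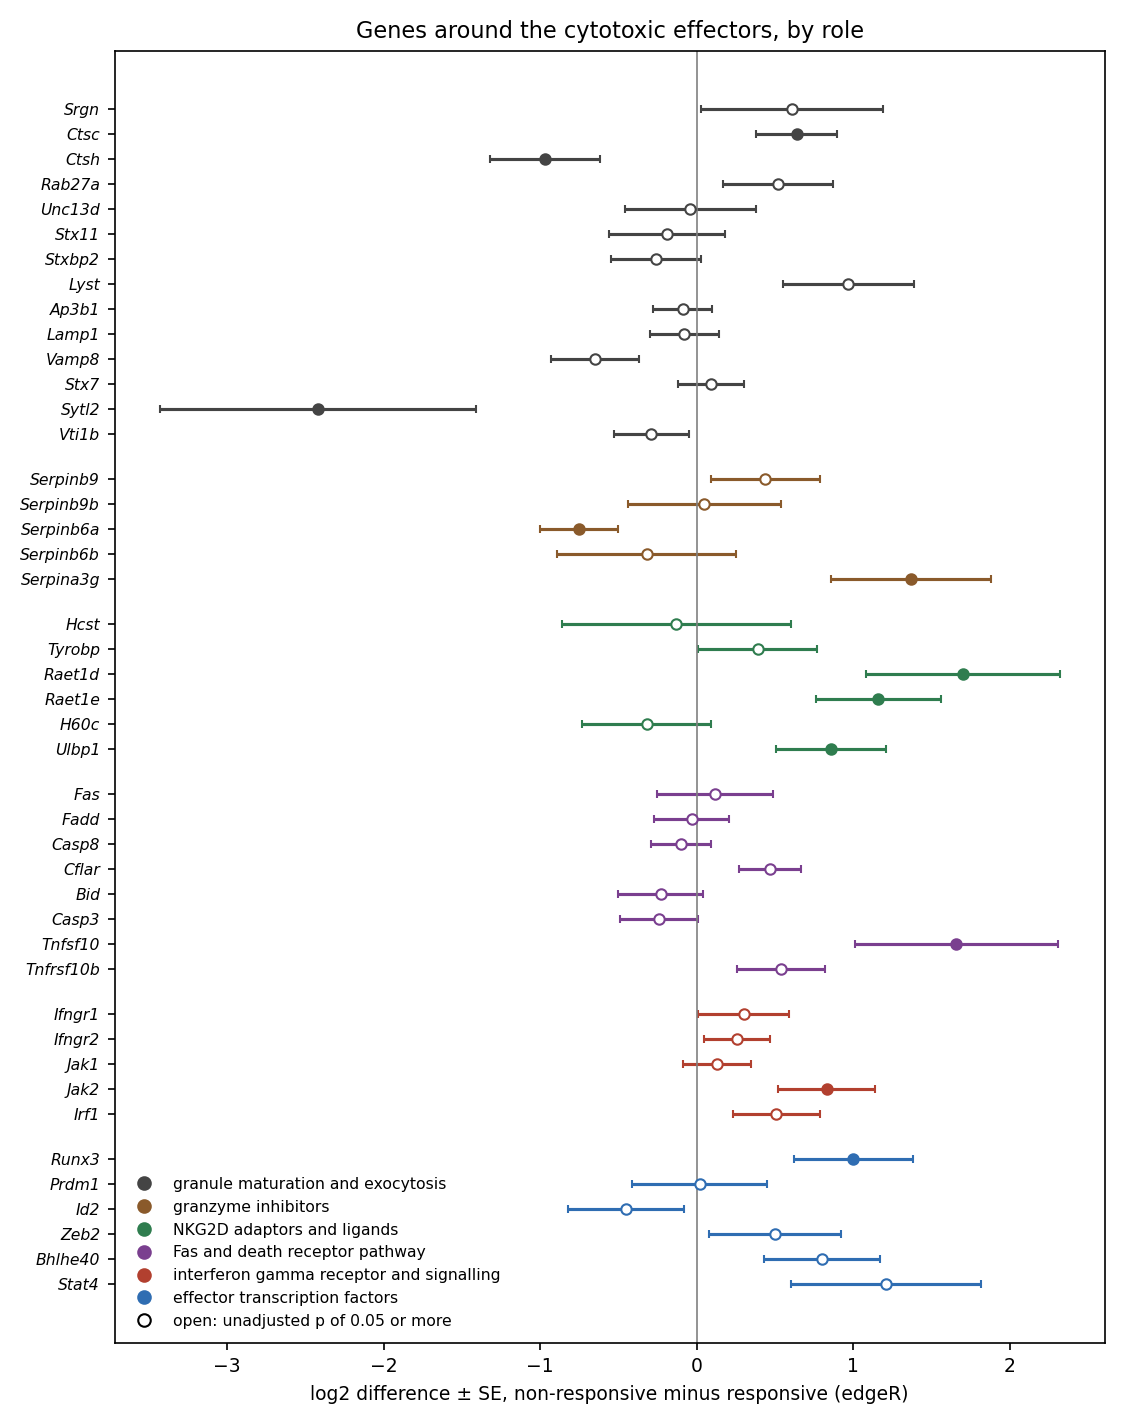
Log2 difference with its SE (horizontal axis, non-responsive minus responsive, edgeR) of 44 of the 45 genes around the effectors that passed the expression filter, coloured by role; filled circles have an unadjusted p under 0.05 and open circles do not. The filled points are Raet1d, Raet1e, Ulbp1, Tnfsf10, Serpina3g, Runx3, Jak2 and Ctsc above 0, and Serpinb6a, Ctsh and Sytl2 below 0.

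The genes whose profiles over the 6 tumours were most like 3 of the effectors were found by the root mean square difference of centred log2 CPM values among all genes tested. For Gzmb they included Nlrp1a (0.21), Adamts6 (0.22), Mtmr7 (0.24) and Ifi213 (0.27). For Prf1 they were Themis (0.42), Art2b (0.42), Cd27 (0.46), Pdcd1lg2 (0.47) and Gpr141 (0.48). Themis is a T cell signalling protein, Cd27 a costimulatory receptor of T cells and Pdcd1lg2 a ligand of PD-1. For Nkg7 they were Epha3 (0.16), Sema4f (0.18), Slc41a2 (0.19), Sema4d (0.20) and Gatm (0.21), with Sema4d, a semaphorin, at 96.0, 141 and 98.9 CPM against 38.1, 60.4 and 42.3 CPM. These likenesses rest on 6 tumours and are a description.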

How the data were processed

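RNA of whole tumours was sequenced from TruSeq libraries, per the labels' protocols. The build was mm10, per the submitters' processing notes; no source used here names the aligner, counting tool, strand setting or annotation. Per the file headers, each tumour has 2 columns, a count and FPKM. The deposited counts are estimated counts without scaling, of which 8.19 to 9.99% per tumour were not whole, and were rounded. The deposited FPKM values, scaled for length and depth, were used to compare levels between genes and in alternatives.

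The main test was edgeR 4.0.16 in R 4.3.3 (TMM, default filter, robust quasi-likelihood test, two-sided) across all genes, with Benjamini-Hochberg adjustment over the 14505 that passed and a threshold of 0.05, and no other covariate. CPM values are TMM-normalised, errors are SD over 3 tumours or SE of a log2 difference. Alternatives were DESeq2 1.42.0, limma-voom and limma 3.58.1 on log2(FPKM + 1) or log2(FPKM + 0.1), other scalings and filters, a block for the replicate number, and each tumour left out in turn. The likelihood ratio test, DESeq2 or no filter without each tumour and the CD3 ratio without each tumour were chosen after seeing the data. The tests were also run on simulated data. The outcome is not reported here, so it does not show how often they miss a difference in genes as low as the effectors.

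The 10 genes and all lists were chosen with earlier results of these data known. Named beside them are, per role list, up to 3 genes at an unadjusted p under 0.05 (otherwise the smallest p), and the 5 closest profiles to Gzmb, Prf1 and Nkg7 without gene-model placeholders and receptor segments. A gene that this rule names and a gene of the role lists are not reported here. Other genes named within the lists were chosen after their values were seen. Every pair of libraries differed beyond counting noise (chi-square over its degrees of freedom at least 75.7). Gene positions are from GENCODE M21 on the same build, which held 21973 of the 22063 identifiers, and count from 1.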

Additional observations from a re-analysis of the deposited data

How the results depend on the processing

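Under every alternative that gave an adjusted p, the 10 genes kept their direction, in 241 comparisons with the main value. In 6 of these DESeq2 gave a call that edgeR did not: Gzmb with all tumours, Gzmb (log2 difference 2.19), Prf1 (3.26), Klrk1 (2.14) and Cst7 (1.97) without non-responsive replicate 1, and Klrk1 (2.24) without non-responsive replicate 3. DESeq2 thus called 1 of the 10 with all tumours, 4 and 1 in these latter fits, and 0 when any other tumour was left out. Over all genes edgeR called 0 with 1825 at an unadjusted p under 0.05, and limma-voom and limma on FPKM also called 0. DESeq2 called 447, the likelihood ratio test 212, and DESeq2 without a tumour 1966, 428 and 169 (non-responsive replicates 1, 2 and 3) and 439, 293 and 192 (responsive replicates 1, 2 and 3). Leaving out any one tumour, edgeR with its filter called 0 genes; without a filter it called 1 gene when responsive replicate 3 was left out, and 0 of the 10.

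The number of the 10 without overlap was 7 to 10 when a tumour was left out, beside 11.6 to 19.9% of all genes. The number whose CD3 ratio did not overlap was 3 with all tumours, 3 to 6 when each was left out (beside 0.476 to 2.79% of all genes), and 0 with CD8 chains as reference. For the genes around the effectors the 11 at an unadjusted p under 0.05 were 2 to 12 when each tumour was left out (5 and 7 without non-responsive replicates 2 and 3, and 6, 4 and 2 without responsive replicates 1, 2 and 3). The cause was not tested.

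With the replicate number as a block edgeR called 0 genes and 1602 were at an unadjusted p under 0.05, and 10 of the genes around the effectors. Same-numbered tumours did not deviate together (correlation of deviations -0.110, -0.087 and -0.024 for numbers 1, 2 and 3), so the numbers were not treated as pairs. At 0 to 22 counts Ifng, Fasl outside non-responsive replicate 2, and Gzmk are limited by counting error.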
